A study of Mus musculus with 6 samples.

Results

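The genes described here are 37 ion channel and calcium-handling genes, chosen by symbol from a named list of calcium, potassium, chloride and TRP channels, store-operated entry proteins, calcium pumps and calcium release channels. All 37 were found among the 27502 genes of the deposited tables. RNA was sequenced from mouse aortic vascular smooth muscle cells in culture, with 3 samples given siRNA against Ezh2 (siEzh2) and 3 control samples (Control), both for 48 hours. Ezh2 encodes the methyltransferase of Polycomb repressive complex 2, which places a repressive mark on histone H3. Neither the labels nor the design text name the strain, sex, age or passage of the cells, or what the Control cells received. It is not stated whether replicate samples were grown or isolated separately, so the p-values cover the spread among these 6 samples, and that spread may be technical.

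In smooth muscle, calcium enters through voltage-gated, TRP and store-operated channels and is released from the sarcoplasmic reticulum through IP3 and ryanodine receptors. Pumps return it to the reticulum or export it, and potassium channels set the membrane potential that opens or closes the voltage-gated calcium channels. Smooth muscle cells in culture commonly lose contractile proteins and several of these channels, while channels of the proliferating state, such as Kcnn4, appear.

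Reads per gene were recovered from steps in the deposited FPKM values (fragments per kilobase of exon, scaled to library size). Summed over genes, they came to 16080005 to 17553743 in siEzh2 and 18248440 to 18753124 in Control samples. Ezh2 had 1.20, 1.09 and 1.05 FPKM in siEzh2 and 3.41, 3.59 and 3.88 FPKM in Control samples, so the targeted transcript was lower in every siEzh2 sample. Of the defining smooth muscle markers Acta2 was abundant (537 ± 17.8 FPKM in siEzh2 and 699 ± 14.8 in Control samples), while Myh11 (1.12 ± 0.181 and 1.83 ± 0.149), Cnn1 (1.04 ± 0.0829 and 1.14 ± 0.203) and Tagln (0.228 ± 0.0744 and 0.253 ± 0.0865) were low in both groups (SD, n = 3 each). The summed FPKM of 10 smooth muscle markers, most of it Acta2, was 546 to 584 in siEzh2 and 721 to 751 in Control samples. Of the 7 tested, 5 were lower (71.4%) and 0 higher. Among the lower ones, Lmod1 and Smtn stood above Myh11, Cnn1 and Tagln in level. Lmod1 had 10.02 ± 0.345 FPKM in siEzh2 and 16.8 ± 0.127 FPKM in Control samples (limma adjusted p = 8.51e-05). Smtn had 10.4 ± 0.841 and 13.4 ± 0.252 FPKM. Synpo2, which was not tested, was higher without overlap (0.515 ± 0.0629 and 0.368 ± 0.0557 FPKM, SD, n = 3 each). By the test described below, 22.7% of all 11869 tested genes were lower and 24.1% higher. The counts of the other marker lists here are to be read beside those shares. The 13 mitochondrially encoded genes summed to 15861 to 16976 FPKM in siEzh2 and 19081 to 19794 FPKM in Control samples, with 8 lower (61.5%) and 0 higher. Among other cell types, 10 fibroblast markers summed to 849 to 879 FPKM in siEzh2 and 1016 to 1062 FPKM in Control samples. Of the 8 tested, 1 was higher (12.5%) and 5 lower (62.5%). The 12 macrophage and leukocyte markers summed to 14.4 to 15.7 FPKM in siEzh2 and 18.2 to 21.3 FPKM in Control samples, with 2 higher and 2 lower of 4 tested, and the pan-leukocyte marker Ptprc averaged 0.00416 and 0.00397 FPKM. In that list Lyz2 had 3.40 ± 0.567 FPKM in siEzh2 and 7.98 ± 1.12 FPKM in Control samples (SD, n = 3 each, adjusted p = 0.00126), and Csf1r 0.621 ± 0.0431 and 2.01 ± 0.309 FPKM (adjusted p = 0.000386). Cd68 and Cd14 were the higher ones. The 10 endothelial markers summed to 5.09 to 5.72 and 4.31 to 4.55 FPKM in siEzh2 and Control samples, with 1 higher and 1 lower of 2 tested. The 9 neuron and glia markers summed to 50.03 to 53.4 and 53.2 to 56.0 FPKM, with 1 lower of 2 tested. Most of that sum was Tubb3 (46.1 ± 1.66 and 45.2 ± 1.30 FPKM, not called). S100b, the lower one, had 4.66 ± 0.356 and 8.21 ± 0.749 FPKM (SD, n = 3 each). The highest of the rest, Sox10, averaged 0.351 and 0.454 FPKM. The 9 cardiomyocyte markers (1.11 to 1.40 FPKM in siEzh2 and 1.05 to 1.41 in Control samples) and 8 skeletal muscle markers (1.18 to 1.63 and 0.773 to 1.41) had no gene above the filter. The skeletal muscle list held 10 genes, but Myod1 and Myog were absent from the deposited values. None of the markers found was at 0 in all 6 samples. Cldn5, Myl7, Mybpc3 and Rbfox3 were at 0 in the 3 siEzh2 samples and Myh4 in the 3 Control samples. The part of all these marker differences in the results below was not tested. In bulk RNA, fewer cells of a type and less RNA per cell cannot be told apart.

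The test, limma on log2(FPKM + 1), covered genes whose mean reached 1 FPKM in siEzh2 or in Control samples, and a gene was called when its Benjamini-Hochberg adjusted p was under 0.05. Of the 37 members, 23 passed this filter, 5 rose and 7 fell in siEzh2 samples, and 11 were not called. The members called made up 52.2% of those tested, against 46.9% of all 11869 tested genes. The 5 higher members were 21.7% of those tested (24.1% of all tested genes were higher), and the 7 lower members 30.4% (22.7% of all tested genes were lower). Groups did not overlap for 13 members, or 56.5%, against 58.1% of all tested genes. The median log2 fold change was −0.01 over the 23 members and 0.01 over all tested genes. The share of members called in either direction lay near that of the whole table. The higher members were Kcnn4, Piezo1, Itpr3, Atp2b1 and Trpm7, and the lower ones Stim1, Trpv4, Atp2a2, Cacnb3, Cacna1c, Orai2 and Clcn3. The counts fell to 3 higher and 3 lower without Control sample 2, to 3 higher and 5 lower without siEzh2 sample 2, and to 4 lower without Control sample 1 or with limma's trend and robust options.

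**Figure D1:**
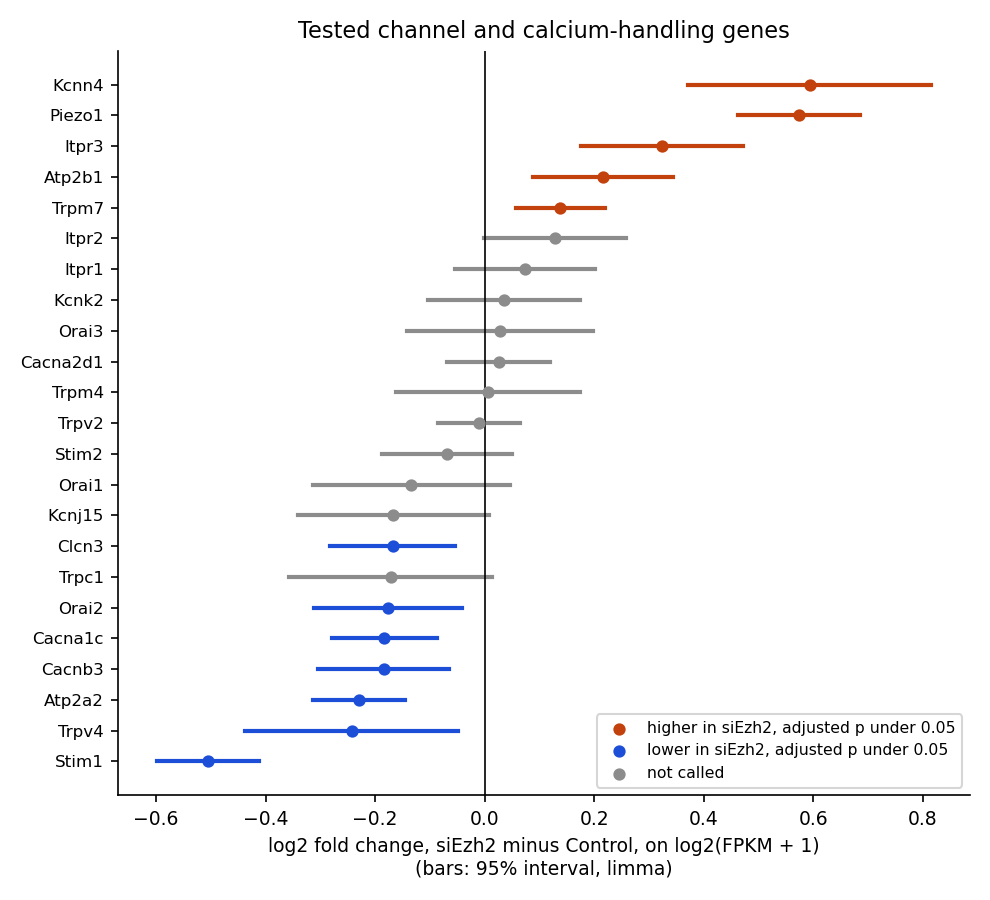
Log2 fold change (siEzh2 minus Control, on log2(FPKM + 1)) of the 23 tested members, with the 95% interval from limma as a bar, coloured by call. Kcnn4 and Piezo1 lie farthest to the right (0.59 and 0.57) and Stim1 farthest to the left (−0.50).

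By level, the members fell over several orders of magnitude. Piezo1 and Atp2a2 averaged at least 20 FPKM over all samples, 9 members lay between 5 and 20 FPKM, 11 between 1 and 5, 6 between 0.3 and 1, and 9 under 0.3. Pln, Ryr2, Kcnma1 and Cacna1d were the 4 lowest, each under 0.02 FPKM on average. FPKM is scaled here by the summed length of all annotated exons of a gene, 10371 bases for Stim1 and 5133 for Stim2. In siEzh2 samples Stim1 thus had 6101 reads and Stim2 3038, at similar FPKM. Whether the cells use all these exons was not tested, so rankings, shares and ratios between genes depend on that length.

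**Figure D2:**
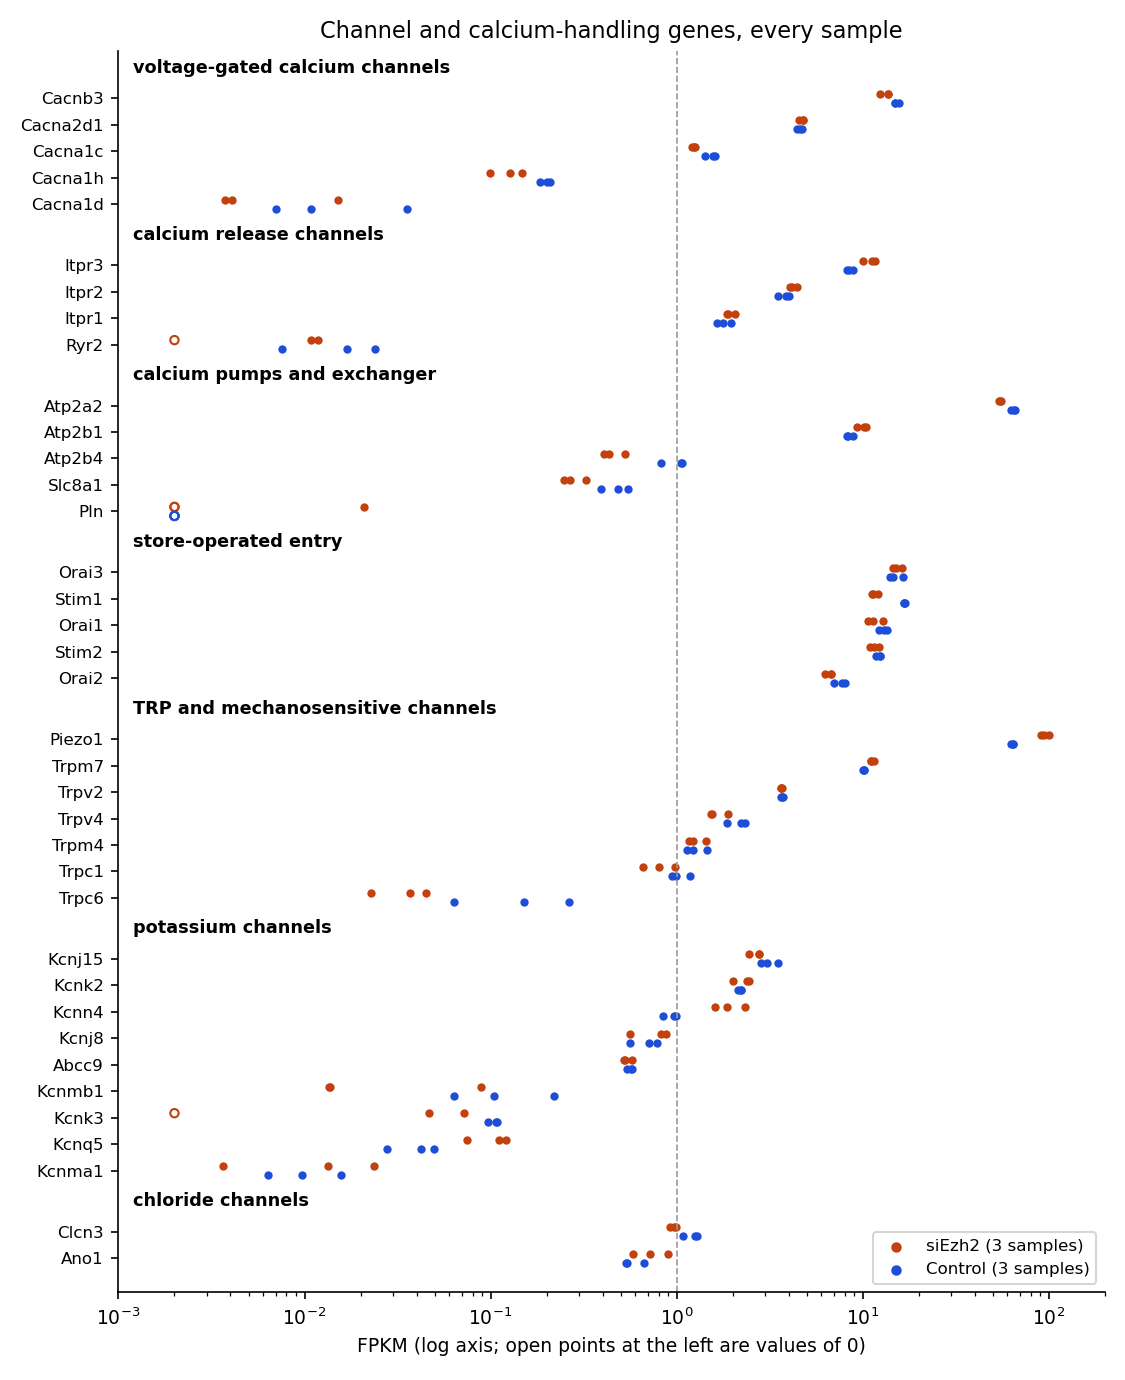
FPKM (log axis) of all 37 members in each of the 3 siEzh2 and 3 Control samples, grouped by role and sorted by level; the dashed line marks 1 FPKM and open points mark values of 0. Piezo1 and Atp2a2 stand above 50 FPKM in every sample, and Pln, Ryr2, Kcnma1 and Cacna1d stay under 0.04 FPKM.

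Mechanosensitive and TRP channels included the most abundant member. Piezo1, a channel opened by membrane stretch that conducts calcium, had 91.0, 94.7 and 100.8 FPKM in siEzh2 samples, against 64.2, 64.3 and 62.8 FPKM in Control samples. Every siEzh2 sample lay above every Control sample, with more spread among the siEzh2 samples. The mean was 95.5 ± 4.92 FPKM in siEzh2 and 63.8 ± 0.876 FPKM in Control samples (SD, n = 3 each), 1.50 times higher (log2 fold change 0.57, SE 0.0460, adjusted p = 0.00027), on 48517 and 35240 reads. Piezo1 (ENSMUSG00000014444) occupies bases 122481698 to 122551329 of chromosome 8, minus strand, in mm10, and 24.6% of its exon bases are shared with the antisense gene Ctu2. Ctu2 had 4.01 ± 0.653 FPKM in siEzh2 and 4.13 ± 0.310 FPKM in Control samples (SD, n = 3 each, adjusted p = 0.751).

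Trpm7, a channel fused to a kinase that carries magnesium and calcium, rose to 11.2 ± 0.281 FPKM in siEzh2, against 10.1 ± 0.0321 FPKM in Control samples (n = 3 each, SD; log2 fold change 0.14, adjusted p = 0.0168). This small difference lost its call without Control sample 2 (adjusted p = 0.0536) and without siEzh2 sample 2 (adjusted p = 0.0545). Trpv4, an osmotically and mechanically gated calcium channel, fell to 1.65 ± 0.212 FPKM in siEzh2, against 2.14 ± 0.247 FPKM in Control samples (n = 3 each, SD; log2 fold change −0.24, adjusted p = 0.0479). Its groups overlapped, since siEzh2 sample 2 (1.90 FPKM) lay above Control sample 3 (1.86 FPKM). The call of Trpv4 was lost without Control sample 1 or 2 (adjusted p = 0.132 and 0.124) or siEzh2 sample 1 or 3 (0.127 and 0.128), with no filter (0.112), a filter at 0.3 FPKM (0.0655), a pseudocount of 0.1 (0.0549), equal sums (0.052) and limma's trend and robust options (0.0517).

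The remaining TRP channels were not called. Trpv2, a calcium channel of growth factor and stretch responses, had 3.65 ± 0.0374 FPKM in siEzh2 and 3.68 ± 0.0408 FPKM in Control samples (SD, n = 3 each), with a 95% interval of the log2 difference of −0.08 to 0.07. Trpm4, a calcium-activated cation channel, had 1.28 ± 0.139 and 1.27 ± 0.165 FPKM in siEzh2 and Control samples (interval −0.16 to 0.17). Trpc1, a receptor-operated cation channel, had 0.814 ± 0.159 FPKM in siEzh2 and 1.04 ± 0.123 FPKM in Control samples (SD, n = 3 each, adjusted p = 0.112). It passed the filter through its Control mean alone. It was called lower without siEzh2 sample 1 (adjusted p = 0.0463), with limma-voom on recovered reads (0.0335) and with the replicate number as a block (0.034), and the filter removed it without Control sample 1. Trpc6, a cation channel opened by diacylglycerol, was below the filter, with 3, 4 and 2 reads in siEzh2 and 14, 25 and 6 reads in Control samples. The lowest Control value of Trpc6 was 0.0638 FPKM and the highest siEzh2 value 0.0449 FPKM, so the groups did not overlap on these few reads.

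**Figure D3:**
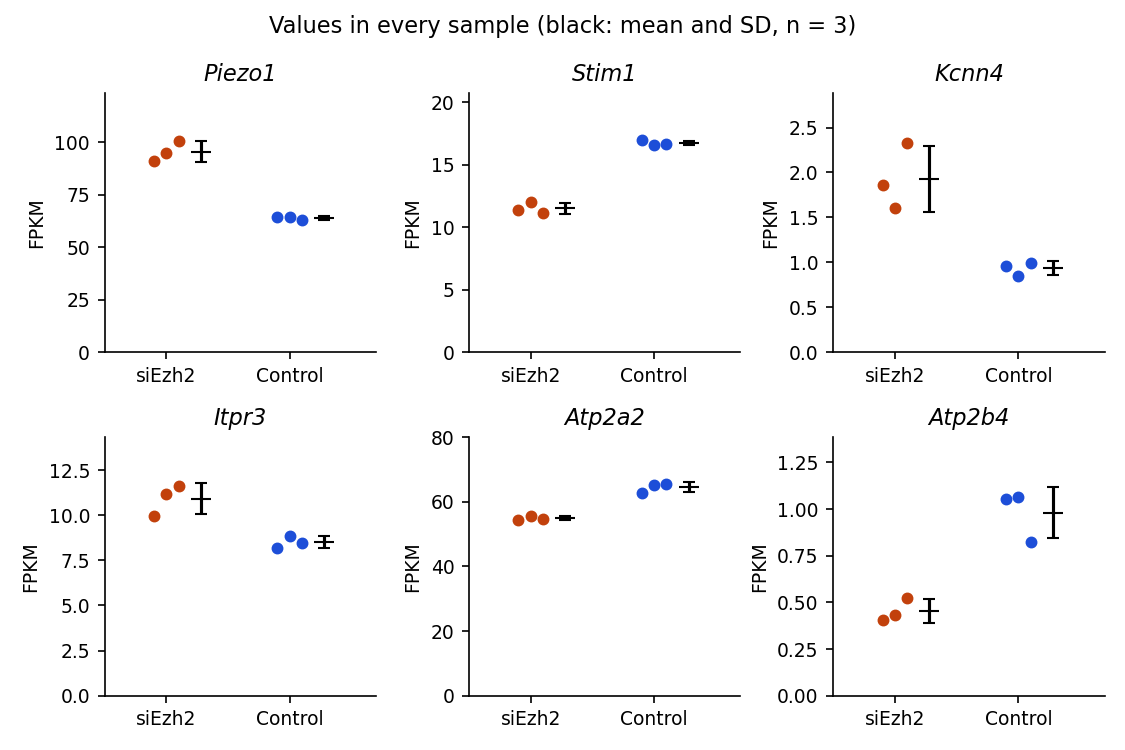
FPKM in each sample of Piezo1, Stim1, Kcnn4, Itpr3, Atp2a2 and Atp2b4, with siEzh2 on the left, Control on the right, and the mean and SD (n = 3) in black. In all 6 genes the siEzh2 points lie wholly above (Piezo1, Kcnn4, Itpr3) or wholly below (Stim1, Atp2a2, Atp2b4) the Control points. The 6 genes were chosen with their values known, so this separation is no result of its own. Groups did not overlap for 58.1% of all tested genes.

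In store-operated entry, STIM proteins sense calcium in the reticulum and open ORAI channels in the plasma membrane when the store empties. Stim1 had 11.4, 12.0 and 11.2 FPKM in siEzh2 samples, against 17.0, 16.6 and 16.7 FPKM in Control samples. No siEzh2 sample came within 4 FPKM of a Control sample. Its mean was 11.5 ± 0.441 FPKM in siEzh2 and 16.8 ± 0.182 FPKM in Control samples (SD, n = 3 each), 1.45 times lower (log2 fold change −0.50, SE 0.0385, adjusted p = 0.000232), on 6101 and 9658 reads. Stim1 (ENSMUSG00000030987, chromosome 7, bases 102267806 to 102437319, plus strand, mm10) shares no exon bases with another gene of the annotation.

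Stim2, the sensor with the higher basal activity, had 11.6 ± 0.664 FPKM in siEzh2 and 12.2 ± 0.320 FPKM in Control samples (SD, n = 3 each, adjusted p = 0.292, interval of the log2 difference −0.19 to 0.05). Stim1 therefore made up 49.8% ± 2.21 of the summed STIM level in siEzh2 and 57.8% ± 0.568 in Control samples (SD, n = 3 each). The ratio of Stim1 to Stim2 was 0.924, 1.10 and 0.965 in siEzh2 samples, against 1.36, 1.35 and 1.41 in Control samples. The sum of both was 23.1 ± 0.469 FPKM in siEzh2 and 29.0 ± 0.438 FPKM in Control samples.

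Among the pore subunits, Orai2 fell to 6.61 ± 0.305 FPKM in siEzh2, against 7.60 ± 0.495 FPKM in Control samples (n = 3 each, SD; log2 fold change −0.18, adjusted p = 0.042). Orai2 was no longer called without Control sample 2 or 3 (adjusted p = 0.12 and 0.115) or siEzh2 sample 1, 2 or 3 (0.0681, 0.0705 and 0.111), with a filter at 0.3 FPKM (0.0584), no filter (0.0873) and the replicate block (0.0733). Orai1, the main pore of store-operated entry in many cells, had 10.6, 11.4 and 12.9 FPKM in siEzh2 and 13.0, 12.2 and 13.4 FPKM in Control samples (adjusted p = 0.187). Its groups overlapped, and it was called lower only without siEzh2 sample 3 (adjusted p = 0.0435) among the alternatives run. Orai3 had the highest mean FPKM of the family, with 15.3 ± 0.883 FPKM in siEzh2 and 15.0 ± 1.28 FPKM in Control samples (SD, n = 3 each, interval −0.14 to 0.20). It held 45.5% ± 2.36 of the summed ORAI level in siEzh2 and 42.2% ± 2.32 in Control samples, a difference with overlap between groups.

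**Figure D4:**
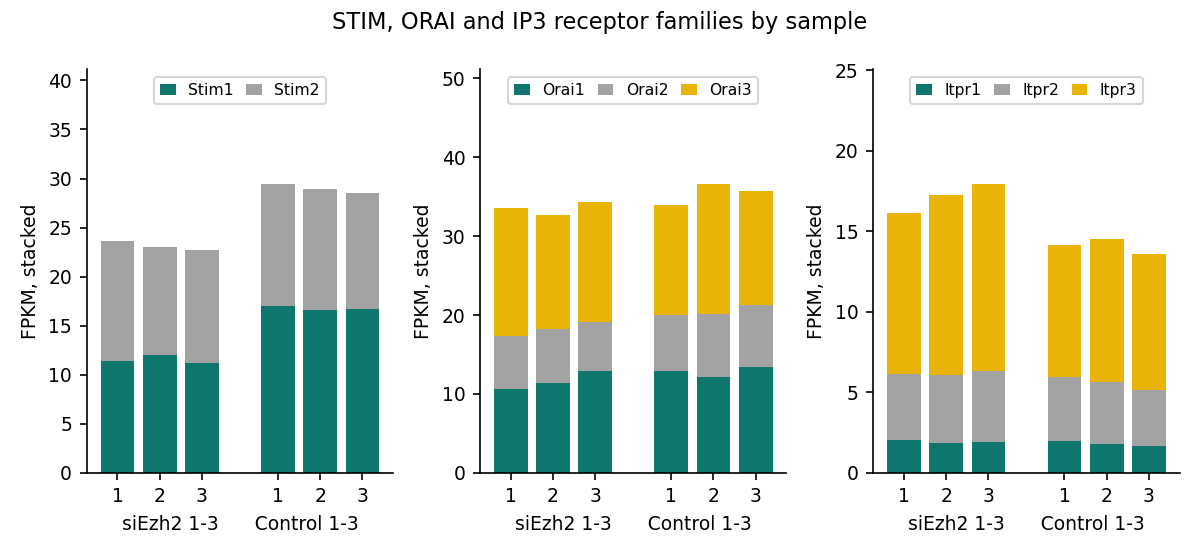
FPKM of the STIM, ORAI and IP3 receptor genes stacked in each of the 3 siEzh2 and 3 Control samples. The STIM and IP3 receptor sums do not overlap between groups (STIM lower and IP3 receptors higher in siEzh2), while the ORAI sums do.

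The IP3 receptors release calcium from the reticulum after hormone stimulation. Itpr3 had 9.98, 11.2 and 11.6 FPKM in siEzh2 samples, against 8.21, 8.87 and 8.45 FPKM in Control samples, with no overlap. Its mean was 10.9 ± 0.841 FPKM in siEzh2 and 8.51 ± 0.337 FPKM in Control samples (SD, n = 3 each), 1.28 times higher (log2 fold change 0.32, SE 0.0610, adjusted p = 0.00644). Itpr3 (ENSMUSG00000042644) occupies bases 27057304 to 27122223 of chromosome 17, plus strand, in mm10, and antisense genes cover 2.58% of its exons. Itpr2 had 4.23 ± 0.184 and 3.79 ± 0.270 FPKM in siEzh2 and Control samples (SD, n = 3 each, adjusted p = 0.094), without overlap, and was called higher with limma-voom (adjusted p = 0.012). Itpr1, the receptor of contractile smooth muscle, had 1.94 ± 0.108 FPKM in siEzh2 and 1.80 ± 0.154 FPKM in Control samples (SD, n = 3 each, adjusted p = 0.295). The 3 receptors together had 17.1 ± 0.904 FPKM in siEzh2 and 14.1 ± 0.474 FPKM in Control samples, of which Itpr3 held 63.8% ± 1.71 and 60.4% ± 2.23 (SD, n = 3 each). Ryr2, the ryanodine receptor of heart and smooth muscle, had 5, 6 and 0 reads in siEzh2 and 4, 13 and 9 reads in Control samples.

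Calcium pumps went both ways. Atp2a2, which encodes the SERCA2 pump that refills the reticulum, had 54.3, 55.7 and 54.7 FPKM in siEzh2 samples, against 62.8, 65.3 and 65.6 FPKM in Control samples, with no overlap. Its mean was 54.9 ± 0.691 FPKM in siEzh2 and 64.6 ± 1.52 FPKM in Control samples (SD, n = 3 each), 1.18 times lower (log2 fold change −0.23, SE 0.0346, adjusted p = 0.00277). Atp2a2 (ENSMUSG00000029467) occupies bases 122453513 to 122502225 of chromosome 5, minus strand, in mm10. Pln, which encodes the SERCA inhibitor phospholamban, had 1 read in siEzh2 sample 3 and 0 reads in the other libraries of both groups. A count of 0 allows up to 3 reads per library, or 0.171 to 0.187 CPM in siEzh2 and 0.16 to 0.164 CPM in Control samples, a limit for counting error only, and 64.7% of the exon bases of Pln overlap antisense genes.

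Of the plasma membrane pumps, Atp2b1 rose to 10.01 ± 0.578 FPKM in siEzh2, against 8.47 ± 0.360 FPKM in Control samples (n = 3 each, SD; log2 fold change 0.22, adjusted p = 0.0171). Its call was lost without Control sample 2 or 3 (adjusted p = 0.0543 and 0.0568) and without siEzh2 sample 2 (0.0551). Atp2b4 had 0.406, 0.432 and 0.525 FPKM in siEzh2 samples, against 1.05, 1.07 and 0.822 FPKM in Control samples, and so lay just below the filter of 1 FPKM with a Control mean of 0.981 ± 0.137 (SD, n = 3). Without Control sample 3 its Control mean passed that filter and it was called lower (adjusted p = 0.00238). With a filter at 0.3 FPKM it had a log2 fold change of −0.44 (adjusted p = 0.00392), on 285 reads in siEzh2 and 668 reads in Control samples. Its mean FPKM was 2.16 times lower in siEzh2, a larger ratio than that of Stim1. Slc8a1, the sodium-calcium exchanger, had 0.279 ± 0.0397 FPKM in siEzh2 and 0.475 ± 0.0803 FPKM in Control samples (SD, n = 3 each). It was also below the filter and had an adjusted p of 0.0287 at the lower one (log2 fold change −0.20), with no overlap between groups.

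Voltage-gated calcium channels were led by their auxiliary subunits. Cacnb3, a cytoplasmic β subunit, fell to 13.2 ± 0.759 FPKM in siEzh2, against 15.2 ± 0.390 FPKM in Control samples (n = 3 each, SD; log2 fold change −0.18, adjusted p = 0.024). Its call was lost without Control sample 1, 2 or 3 (adjusted p = 0.0537, 0.0751 and 0.0528). Cacna1c, the pore of the L-type channel that admits calcium for contraction, had 1.25, 1.20 and 1.24 FPKM in siEzh2 samples, against 1.60, 1.57 and 1.43 FPKM in Control samples. It was 1.25 times lower with no overlap (log2 fold change −0.18, SE 0.0395, adjusted p = 0.0109). On recovered reads, without the added 1 FPKM, the log2 fold change was −0.32 by limma-voom, and the call was lost with limma's trend and robust options (adjusted p = 0.0595). Cacna2d1, the α2δ subunit, had 4.70 ± 0.153 and 4.60 ± 0.143 FPKM in siEzh2 and Control samples (SD, n = 3 each, interval −0.07 to 0.12). The T-type pore Cacna1h had 0.125 ± 0.0241 FPKM in siEzh2 and 0.199 ± 0.0126 FPKM in Control samples without overlap (20, 17 and 25 reads against 33, 37 and 38). Cacna1d, another L-type pore, had 1 to 3 reads in siEzh2 and 2 to 8 reads in Control samples.

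Among potassium channels, Kcnn4 had the largest log2 fold change of the 23 tested members. It encodes the intermediate-conductance calcium-activated potassium channel of proliferating smooth muscle cells, and had 1.86, 1.60 and 2.33 FPKM in siEzh2 samples, against 0.963, 0.844 and 0.990 FPKM in Control samples. Every siEzh2 sample was above every Control sample, with means of 1.93 ± 0.366 FPKM in siEzh2 and 0.932 ± 0.0779 FPKM in Control samples (SD, n = 3 each), 2.07 times higher on 504 and 265 reads. The log2 fold change was 0.59 (SE 0.0916, adjusted p = 0.00306), and 0.96 with a pseudocount of 0.1 and 1.03 with limma-voom. Kcnn4 passed the filter through its siEzh2 mean alone. Kcnn4 (ENSMUSG00000054342) occupies bases 24370263 to 24386690 of chromosome 7, plus strand, in mm10 and shares no exon bases with another gene.

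Kcnk2, the stretch-activated two-pore channel TREK-1, had 2.28 ± 0.233 and 2.19 ± 0.0420 FPKM in siEzh2 and Control samples (SD, n = 3 each, interval of the log2 difference −0.10 to 0.17), and an antisense gene covers 12.2% of its exons. Kcnj15, an inward rectifier, had 2.67 ± 0.187 FPKM in siEzh2 and 3.13 ± 0.350 FPKM in Control samples (SD, n = 3 each, adjusted p = 0.104). The groups of Kcnj15 did not overlap, and it was called lower with limma-voom (adjusted p = 0.0385). Neither was called by the test used here.

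The vascular ATP-sensitive channel pairs the pore Kcnj8 with the sulfonylurea receptor Abcc9, genes that lie side by side on chromosome 6 (142564837 to 142571614 and 142587862 to 142702315, mm10). Kcnj8 had 0.756 ± 0.169 and 0.684 ± 0.114 FPKM in siEzh2 and Control samples, and Abcc9 0.542 ± 0.0296 and 0.563 ± 0.0197 FPKM (SD, n = 3 each), all below the filter. The ratio of Kcnj8 to Abcc9 was 1.41 ± 0.375 in siEzh2 and 1.22 ± 0.203 in Control samples, with overlap.

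Potassium channels that limit contraction in the intact vessel had few reads. Kcnma1, the pore of the large-conductance calcium-activated BK channel, had 1, 4 and 7 reads in siEzh2 and 3, 5 and 2 reads in Control samples. Its smooth muscle subunit Kcnmb1 had 6, 1 and 1 reads in siEzh2 and 8, 5 and 17 reads in Control samples, and the groups overlapped. Kcnk3, the acid-sensitive background channel TASK-1, had 3, 5 and 0 reads in siEzh2 and 7, 8 and 8 reads in Control samples. Kcnq5, a voltage-gated channel of the M-current family, had 15, 15 and 10 reads in siEzh2 and 7, 4 and 6 reads in Control samples. Kcnk3 was lower and Kcnq5 higher in every siEzh2 sample, but neither was called with no filter (adjusted p = 0.142 and 0.0951).

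Chloride channels were represented by a pair of genes. Clcn3, a chloride-proton exchanger of endosomes, fell to 0.963 ± 0.0367 FPKM in siEzh2, against 1.21 ± 0.113 FPKM in Control samples (n = 3 each, SD; log2 fold change −0.17, adjusted p = 0.0283). Like Kcnn4, it passed the filter through 1 group, here its Control mean, so its test rests on the group where it is high. The groups did not overlap, but the call was lost without Control sample 1 or 2 (adjusted p = 0.0817 and 0.0849) or siEzh2 sample 1, 2 or 3 (0.0627, 0.0578 and 0.0788), with no filter (0.0536) and with limma's trend and robust options (0.113). Ano1, the calcium-activated chloride channel, had 0.732 ± 0.157 FPKM in siEzh2 and 0.581 ± 0.0744 FPKM in Control samples (SD, n = 3 each), below the filter and with overlap.

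The stretches just upstream of 4 members are shown. They belong to the largest rises and fall in log2 fold change among the tested members, and to a low gene. They run from 1 to 31 CpG dinucleotides (1 to 50 over the set). These dinucleotides are the sites of DNA methylation and a mark of the CpG islands where Polycomb complexes are often found. The stretches are the 250 bases before the annotated start (RefSeq, GRCm38.p6, the build also called mm10), 5′ to 3′ on the gene's strand, with each CpG in capitals. In GENCODE M21, used for the gene positions above, Stim1 starts at base 102267806. The end of its stretch, which runs to base 102267818, thus lies within the gene by that annotation. These 4 genes were chosen after their values were seen.
Piezo1, chr8:122551330-122551579, minus strand: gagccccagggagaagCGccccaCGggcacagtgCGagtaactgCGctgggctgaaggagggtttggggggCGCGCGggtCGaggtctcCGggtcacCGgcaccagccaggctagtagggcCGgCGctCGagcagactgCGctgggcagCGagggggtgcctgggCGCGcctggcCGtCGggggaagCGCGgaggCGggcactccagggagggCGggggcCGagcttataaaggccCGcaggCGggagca
Stim1, chr7:102267569-102267818, plus strand: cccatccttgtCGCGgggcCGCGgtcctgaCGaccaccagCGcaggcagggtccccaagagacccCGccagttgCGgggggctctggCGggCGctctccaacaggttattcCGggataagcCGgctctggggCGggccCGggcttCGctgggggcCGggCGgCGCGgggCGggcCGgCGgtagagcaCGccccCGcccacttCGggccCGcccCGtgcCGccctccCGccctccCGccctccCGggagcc
Kcnn4, chr7:24370013-24370262, plus strand: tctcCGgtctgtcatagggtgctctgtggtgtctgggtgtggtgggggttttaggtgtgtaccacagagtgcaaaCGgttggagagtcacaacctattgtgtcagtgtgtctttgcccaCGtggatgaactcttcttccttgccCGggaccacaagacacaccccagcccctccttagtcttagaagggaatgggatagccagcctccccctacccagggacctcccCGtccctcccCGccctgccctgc
Kcnmb1, chr11:33962763-33963012, plus strand: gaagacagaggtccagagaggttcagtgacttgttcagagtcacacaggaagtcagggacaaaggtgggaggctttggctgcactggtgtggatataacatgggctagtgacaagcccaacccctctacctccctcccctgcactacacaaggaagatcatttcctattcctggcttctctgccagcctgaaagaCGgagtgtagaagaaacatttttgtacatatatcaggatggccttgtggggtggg

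The upstream stretches of Piezo1, which rose, and of Stim1, which fell, held 26 and 31 CpG. That of Kcnn4, which rose, held 6 and that of the near-silent Kcnmb1 held 1. RefSeq sequence was found for 32 of the 37 members, taking the window with the most CpG where a gene had several starts. At least 10 CpG stood in 23 of the 32 (71.9%), against 40.2% of all 27025 genes with such a sequence. Among tested members the share was 16 of 20 (80.0%), against 81.0% of the 8668 tested genes with a sequence. It was 4 of the 5 members that rose and 6 of the 6 that fell and had a sequence, and 7 of 12 below the filter (58.3%). The CArG box, the motif bound by SRF and searched on both strands, stood in 1 of the 32, Trpc6 (3.13%), against 1.62% of all genes, and a match of letters is a description only.

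**Figure D5:**
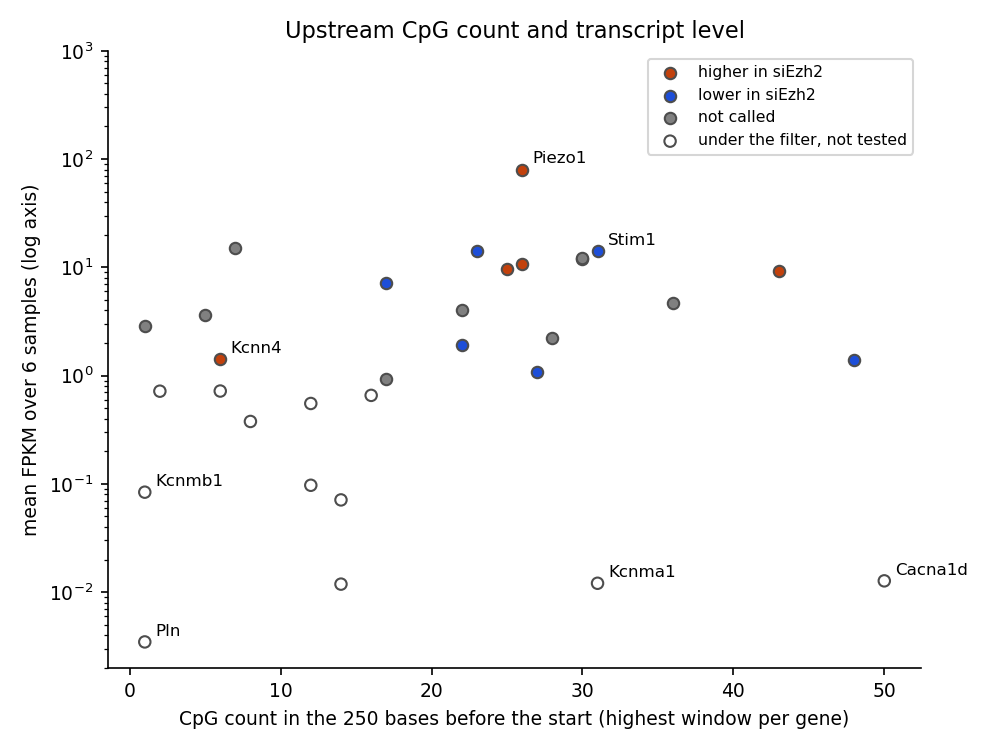
Count of CpG in the 250 bases before the start (highest window per gene) against the mean FPKM over 6 samples (log axis) for the 32 members with a RefSeq sequence, coloured by call. Members that rose held 6 to 43 CpG and those that fell 17 to 48, and the low genes Kcnma1 (31) and Cacna1d (50) held at least as many as the abundant Piezo1 (26).

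Genes of the same pathways outside the 37 were counted from 9 lists. Of their 213 genes 202 were in the tables and 77 were tested, of which 10 rose and 33 fell. By direction, 13.0% rose against 24.1% of all tested genes, and 42.9% fell against 22.7%, which together made 55.8% against 46.9%. Their median log2 fold change was −0.11, against 0.01 over all tested genes. Calmodulin, calcineurin and NFAT genes, which relay calcium to kinases and transcription, held 13 of the falls and 2 rises among 19 tested, or 68.4% lower and 10.5% higher, against 22.7% and 24.1% of all tested genes. The smallest p-values there were those of Rcan2, a calcineurin inhibitor (5.995 ± 0.393 FPKM in siEzh2 and 12.9 ± 0.253 in Control samples), and, among those that rose, Camk1d, a calmodulin-dependent kinase (3.11 ± 0.158 and 1.56 ± 0.177 FPKM; SD, n = 3 each).

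Over all tested genes, 24.1% rose and 22.7% fell. Other release channels and store proteins had 3 rises and 7 falls of 13 tested (23.1% and 53.8%). Among them were Asph, whose locus encodes junctin of the reticulum (18.3 ± 0.412 FPKM in siEzh2 and 14.1 ± 0.203 in Control samples), and Saraf, an inhibitor of store-operated entry (62.0 ± 1.67 and 76.9 ± 1.13 FPKM; SD, n = 3 each). Saraf fell by 0.31 on the log2 scale in the same samples in which Stim1 fell by 0.50. Other voltage-gated calcium channel subunits had 0 rises and 2 falls of 4 tested (0% and 50%). The T-type pore Cacna1g had 2.28 ± 0.0248 FPKM in siEzh2 and 4.78 ± 0.236 FPKM in Control samples (SD, n = 3 each). It fell by 0.82 on the log2 scale (adjusted p = 7.01e-05). Cacna1g exceeded the L-type Cacna1c in FPKM, but had 1182 reads in siEzh2 against 1332 for Cacna1c. All 3 tested genes of the other TRP and PIEZO channels fell, led by Pkd2, a calcium-permeable channel of the polycystin family (25.1 ± 0.528 and 36.1 ± 0.534 FPKM in siEzh2 and Control samples; SD, n = 3 each).

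Other potassium channels had 2 rises and 2 falls of 6 tested (33.3% each), where 24.1% of all tested genes rose and 22.7% fell. The potassium channel genes called included the auxiliary subunits Kcne4 (27.1 ± 1.34 FPKM in siEzh2 and 21.2 ± 0.836 in Control samples) and Kcnab1 (6.74 ± 0.0549 and 11.5 ± 0.237 FPKM, SD, n = 3 each). Kcne4 was thus more abundant in both groups than any potassium channel among the 37 members. The sodium pump had 1 rise and 2 falls of 5 tested (20% and 40%). Its β1 subunit Atp1b1 was at 29.4 ± 1.32 FPKM in siEzh2 and 41.3 ± 0.288 FPKM in Control samples (SD, n = 3 each). Other chloride channels had 2 rises and 1 fall of 15 (13.3% and 6.67%, both below the shares of all tested genes). The endosomal Clcn5 was at 1.53 times its Control mean and the volume-regulated channel subunit Lrrc8a at 0.785 times. Mitochondrial calcium uptake had 0 rises and 2 falls of 11 (0% and 18.2%, also below those shares), with Vdac1 of the outer membrane at 0.888 times its Control mean. The only tested gene of the other exchangers and pumps, the potassium-dependent exchanger Slc24a3, was at 0.567 times its Control mean.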

How the data were processed

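Libraries were made with a stranded mRNA kit, per the labels' protocols, and each sample had 1 table of FPKM per gene deposited by the authors (unit per the file headers). Trimmomatic, HISAT2, HTSeq, Cufflinks and mm10 are named in the submitters' processing notes, without versions or order. No source used here says whether counting used strand, so exon overlaps (GENCODE M21, mm10) are stated. The files held FPKM, and limma 3.58.1 in R 4.3.3 was fitted without covariates on log2(FPKM + 1), siEzh2 minus Control, over the 11869 genes whose mean reached 1 FPKM in either group, with Benjamini-Hochberg adjustment over all of them. This scale understates changes of low genes. FPKM ratios and SDs are of group means of FPKM. FPKM multiplied by exon length moved in equal steps, which gave whole reads (within 0.02) for 98.4% to 98.5% of values under 1000 reads. The test was checked on simulated counts with known changes. It recovered 52% of 1.25-fold, 78% of 1.5-fold, 92% of 2-fold and 98% of 3-fold changes. Of its 170 calls 10 were false. The spread of the simulated counts was assumed, so these shares may not hold for the samples. Tables and figures were made in Python 3.11.15 (matplotlib 3.10.9, numpy 2.4.6, pandas 2.3.3, scipy 1.17.1). Samples were grouped by their titles. The members, the other lists and the tests were chosen with earlier results of these data known. Every member is reported, with values per sample at least for Ezh2, for called members with an absolute log2 fold change of 0.3 or more and for members at or above 20 FPKM in either group, and of each other list the called gene with the smallest p in each direction is named, except 1 that is not reported here. Alternatives were a pseudocount of 0.1, no filter or one at 0.3 FPKM, quantile normalization, equal sums, trend and robust, a replicate block, limma-voom on recovered reads, and leaving out each sample.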

Additional observations from a re-analysis of the deposited data

How the results depend on the processing

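Under 14 alternatives, 5 of the 12 called members kept their direction and call throughout (Piezo1, Stim1, Kcnn4, Itpr3 and Atp2a2), and 7 lost the call under at least 1, none with a change of direction. Another 6 members were called under at least 1 alternative: Itpr2, Kcnj15, Orai1 and Trpc1, which were tested, and Atp2b4 and Slc8a1, which were below the filter. Leaving out 1 sample gave 3 to 5 higher and 3 to 6 lower members, and limma's trend and robust options gave 4 lower members in place of 7. The counts over all genes and over the other lists stayed within 1.5 times. With quantile normalization the signs of Cacna2d1 (−0.0035), Kcnk2 (−0.00013) and Trpm4 (−0.037), not called in any fit, turned. Leaving out 1 sample gave log2 fold changes of −0.00086 to 0.095 for Kcnk2, −0.017 to 0.091 for Orai3 and −0.043 to 0.063 for Trpm4. The cause was not tested. With the replicate number as a block, 5 higher and 7 lower members were called: Orai2 lost its call and Trpc1 gained one. Deviations of same-numbered samples correlated by 0.0243, 0.0695 and 0.0405, each sample's highest with its own number. These values were small, and siEzh2 sample 3 correlated by 0.0218 with Control sample 1. Deviations from means of 3 samples are tied to each other, so they cannot decide whether the numbers mark pairs. The design does not say either. The 9 members under 0.3 FPKM were tested only with no filter, with adjusted p-values of 0.069 to 0.927 by limma.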
